A study of Vigna radiata with 9 samples.

Results

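Leaves of mung bean (Vigna radiata, variety Lvfeng No.2, wild type) that had spent 4 days at 15 °C were compared with unchilled leaves over all genes, with photosynthesis left aside. The comparison used 6 of the 9 libraries of the series, namely the 3 labelled low temperature and water (LT) and the 3 labelled water without cold (CK). Plants of both groups had been sprayed with water when flowering began. CK plants remained under natural conditions, and LT plants were moved 36 h after the spray to a phytotron kept at 15 °C day and night for 4 days. Temperature and place of growth changed together and cannot be told apart. The study's methods do not give the day on which CK leaves were taken, nor the hour for either group. Plant age and time of day may therefore differ between the groups as well. A library stands for 1 pot of 1 variety, so that the spread given below is that between pots. The 3 libraries of plants sprayed with 50 mg/L uniconazole before the same cold (LT+S) entered the fit only to help estimate the spread.

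Mung bean is a legume of warm regions and is injured by chilling well above freezing. In leaves of such plants cold slows enzymes more than light capture, carbon that is not exported accumulates as sugars and starch, and reactive oxygen is formed in chloroplasts and peroxisomes. Known layers of the plant cold response include calcium signals, the ICE and DREB transcription factors with the protective proteins they induce, hormone signals such as abscisic acid and ethylene, and changes of membrane lipids.

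Total counts ran from 19561896 to 21617340 per library, and of the 26966 annotated genes 19304 passed the filter on low counts and were tested. Values are given as CPM, counts scaled by TMM to a common library size of 1e+06, which do not take gene length into account, so that levels of different genes are not compared with each other. The leaf identity of the samples was checked on fixed markers. Of 20 leaf mesophyll markers, all of them genes of chlorophyll-binding proteins or of Rubisco, 19 were lower and 1 higher in LT, and they still summed to at least 6725 CPM in every LT library, against at least 59975 in CK. In bulk leaf RNA, fewer cells of a type and less RNA per cell cannot be told apart. Markers of epidermis, guard cells, dividing cells, flowers and roots had medians between -0.39 and 0.50 on the log2 scale, and in these lists between 5 and 9 genes were called higher and between 1 and 5 lower, of 14 to 45 tested. Without CK 2 between 1 and 7 genes of these lists were higher, guard cell markers having 1 in place of 6, and over all fits that left out 1 library between 1 and 8 were lower. The medians of the epidermis and root markers, below 0, turned positive without CK 3 and with library totals (explained below). The CK libraries did not form a tight group. Over the 56 vascular and fibre markers the median log2 level, relative to the mean of CK, was -1.69 in CK 1, 0.45 in CK 2 and 1.31 in CK 3, and in LT it lay between -0.41 and 0.70. On the first 2 principal components of the 6 libraries, which held 67.9% and 17.1% of the variance, the second ran from 72.9 in CK 1 to -54.0 in CK 3. LT 3 also stood apart, as described below with the WRKY and ethylene genes. Results that rest on these libraries are given with and without them, and where leaving out 1 library ended a call or moved a fold by over 1.5 times, the adjusted p or log2 fold change of that fit stands beside the value.

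Nearly equal numbers of genes were higher and lower in LT. The quasi-likelihood test of edgeR, adjusted over all genes, called 4394 genes higher (22.8% of those tested) and 4574 lower (23.7%), together 46.5%, and the CK and LT libraries of 54.8% of all genes did not overlap. Any share of a gene group near these values is no result about the group. Of the genes called higher, 826 differed over 4-fold and 168 over 16-fold, and of those called lower 780 and 98. At the threshold of the study's methods, a fold over 2 with p below 0.05 before adjustment, 2276 were higher and 2578 lower. These numbers are relative to the TMM scaling, which takes the bulk of genes as unchanged. In CK the 10 genes with the most counts held 13.5 to 13.8% of the counts and in LT 4.43 to 7.17%. With library totals alone as the scale the median log2 fold change of all genes was 0.52 instead of 0.01, and 9275 genes were higher and 2314 lower, so that 80.0% of the calls were higher against 49.0% with TMM. A fall smaller than this shift of the median can therefore be lost or turned with library totals, and a gene not called here can be called higher. Lists with equal counts can then lean to higher, as did the chaperones (48 of 183 in each direction, but 83 higher and 32 lower with library totals). Where library totals turned the direction of a list's or family's counts or median that is given below, their value stands beside it. Without CK 2, the middle one of the CK libraries, 3154 genes were higher and 3670 lower. Gene lists are described by their counts and medians against these shares. Families of enzymes counted below, and some of their members, were chosen after their values were seen.

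**Figure D1:**
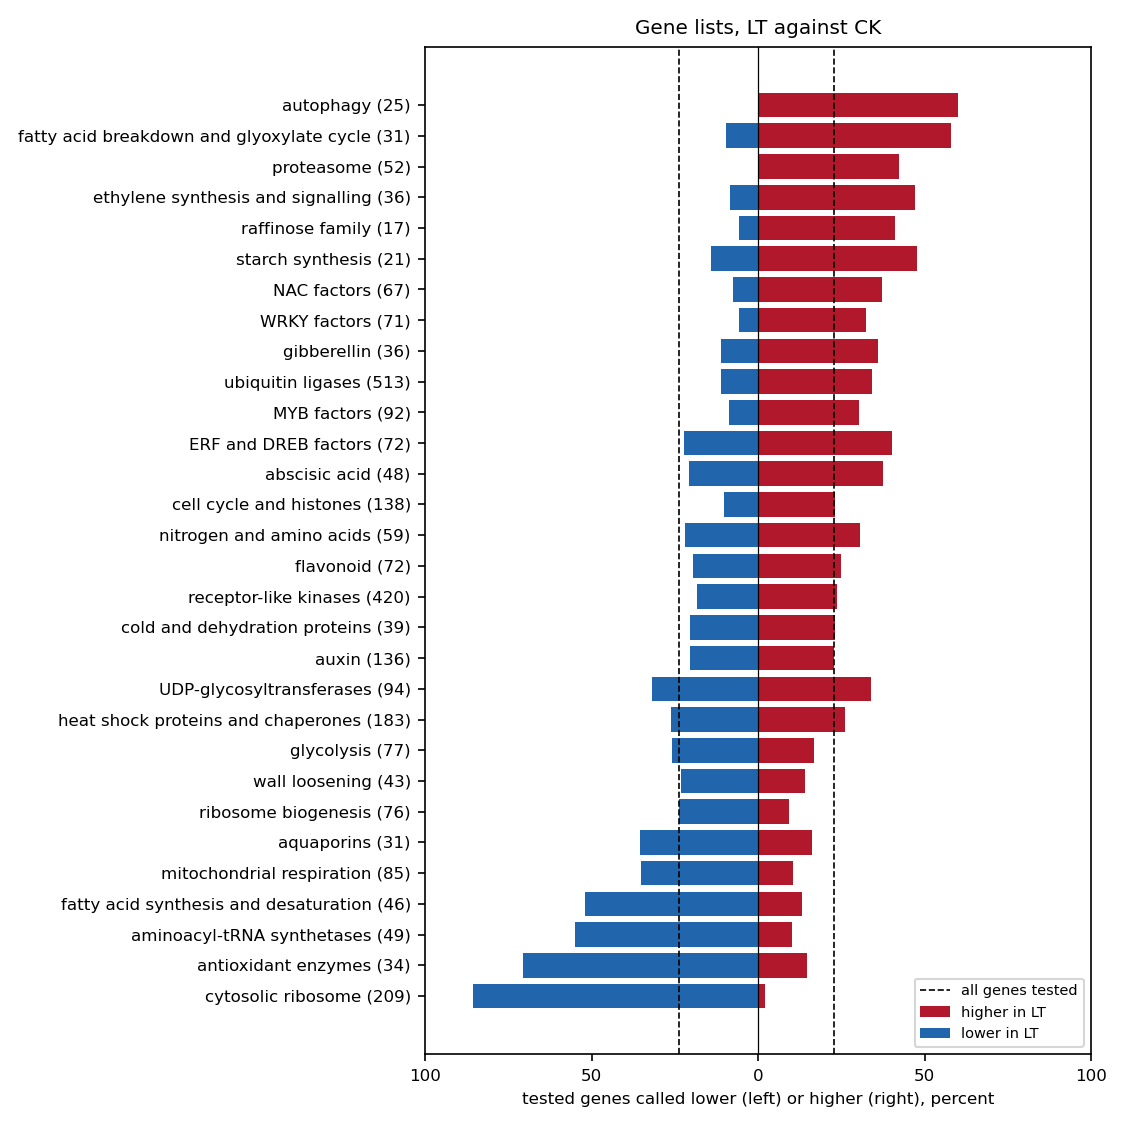
Share of the tested members of each gene list that edgeR called higher (bars to the right) or lower (bars to the left) in LT, against CK and with an adjusted p below 0.05, in percent of tested members, with the list's size in parentheses. The dashed lines mark the shares over all genes tested, 22.8% higher and 23.7% lower. Cytosolic ribosomal proteins and antioxidant enzymes reach farthest to the left, autophagy and fatty acid breakdown farthest to the right. With library totals alone as the scale, the medians of 7 of these lists change sign to positive, those of mitochondrial respiration, ribosome biogenesis, aminoacyl-tRNA synthetases, wall loosening, chaperones, UDP-glycosyltransferases and starch synthesis.

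Genes of plastid proteins outside photosynthesis were lower more often than higher. The product descriptions name the plastid for 1358 tested genes that are not in the lists of photosynthesis, and 699 of these were lower (51.5%) and 193 higher (14.2%), their median being -0.54 on the log2 scale. Genes described for both the plastid and the mitochondrion were counted with the plastid. Of 668 genes whose description names the mitochondrion but not the plastid, 179 were lower and 80 higher (median -0.13). Genes of the peroxisome went the other way: of 67, 26 were higher and 12 lower (median 0.33). The list of fatty acid breakdown, described below, holds 26 genes of the peroxisome, with 15 higher and 2 lower. A lean of the peroxisome apart from that list is therefore not shown. Over the 16846 genes with no compartment in the description, 24.1% were higher and 20.5% lower. With library totals as the scale the plastid genes had 469 lower and 389 higher (median -0.03) and the mitochondrial genes turned, with 270 higher, 54 lower and a median of 0.37. The split by compartment was made after the values were seen.

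Within single processes, forms of the plastid could be counted apart from those of other compartments. Aminoacyl-tRNA synthetases charge transfer RNAs with amino acids. Of 24 forms described for the chloroplast, all of them also for mitochondria, 19 were lower and 1 higher, whereas of 15 cytosolic forms 5 were lower and 3 higher. With library totals the plastid forms had 14 lower and 4 higher, and the cytosolic forms turned to 7 higher and none lower. The plastid phenylalanine--tRNA ligase (LOC106759286) had 138, 133 and 143 CPM in CK 1, CK 2 and CK 3 and 36.2, 40.7 and 31.0 CPM in LT 1, LT 2 and LT 3 (log2 fold change -1.94, standard error 0.12, adjusted p = 2.9e-05). The cytosolic asparagine--tRNA ligase 1 (LOC106773475) had 21.3, 20.4 and 15.1 CPM in CK and 27.9, 31.4 and 31.0 CPM in LT (log2 fold change 0.67, standard error 0.15, adjusted p = 0.0062). In neither gene did CK and LT overlap, and the plastid gene was low in every LT library. All 13 antioxidant enzymes of the plastid were lower, among 34 of which 24 were lower and 5 higher (median -0.91; 16 lower and 7 higher with library totals, and 2 higher without CK 2). Of 33 plastid enzymes of fatty acid synthesis and desaturation 18 were lower and 4 higher. Of the 8 with no compartment named 4 were lower and 2 higher, and of 5 mitochondrial ones 2 were lower and 0 higher. Plastid forms were 24 of the 49 tested synthetases and made up 19 of their 27 falls. They were 13 of the 34 antioxidants, with 13 of the 24 falls, and 33 of the 46 enzymes of fatty acids, with 18 of the 24 falls. For the enzymes of fatty acids the share of falls was thus near the plastid's share of the list. The plastid did not have the larger share of falls everywhere. Of 14 plastid forms in the jasmonate list 2 were lower and 4 higher, against 13 lower and 8 higher of the 32 genes with no compartment named (9 lower and 16 higher with library totals). It was the exception among the 9 lists with at least 8 tested plastid forms and at least 8 genes of another compartment. Not all differences were large. In fatty acid synthesis 54.5% of plastid forms were lower, against 50% of the genes with no compartment named. In starch breakdown the plastid share was 26.3%, near that of all genes, with 5 of 19 lower and 6 higher.

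**Figure D2:**
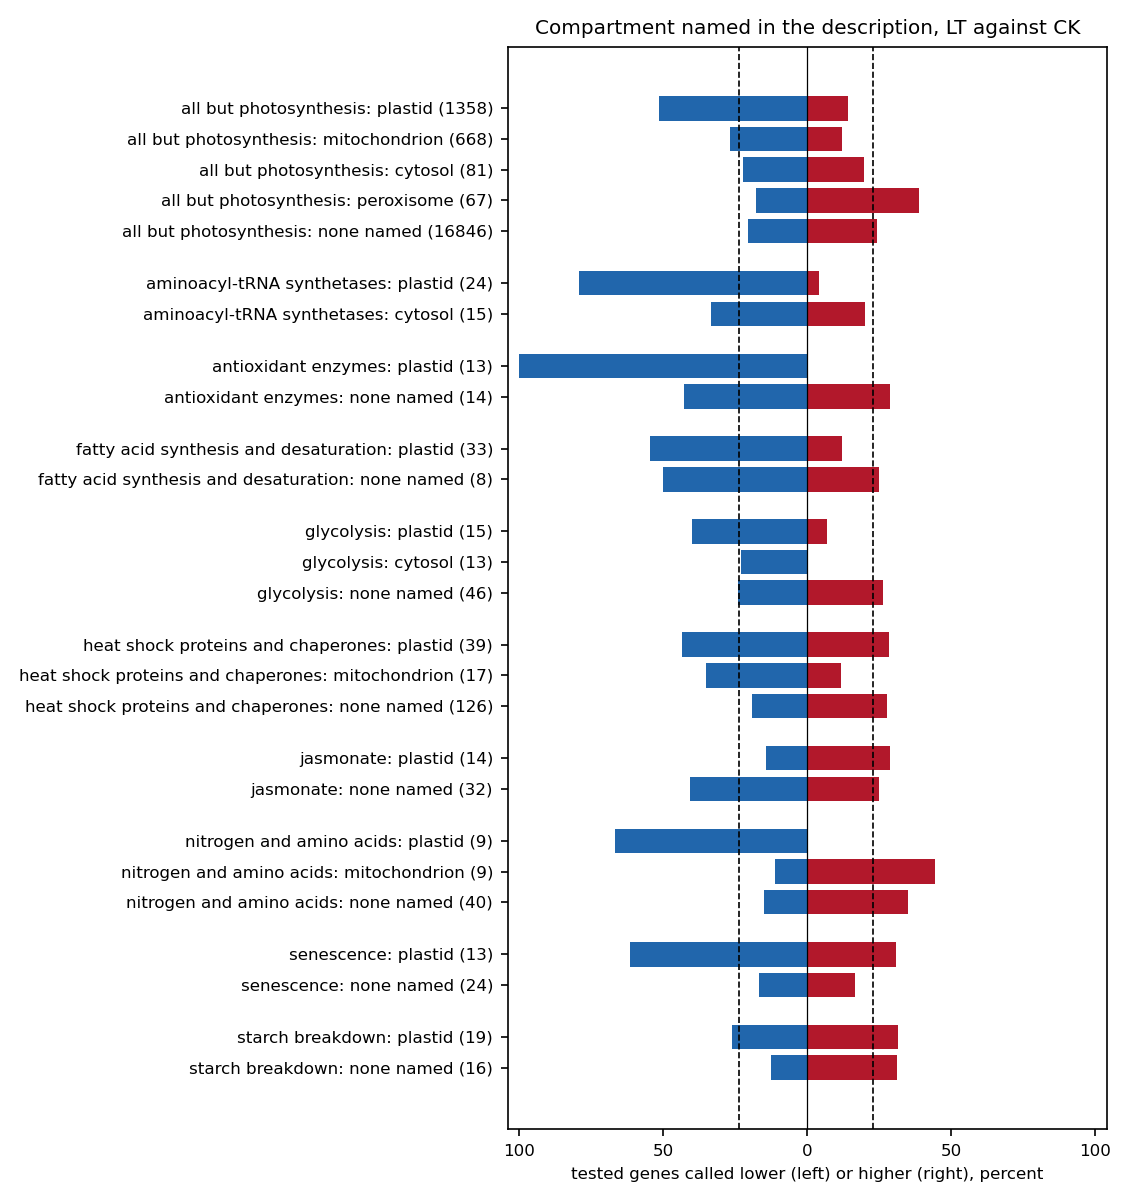
Share of genes called higher (right) and lower (left) in LT, in percent of the tested genes, by the compartment that the product description names, for all genes outside photosynthesis and within the 9 lists with at least 8 tested plastid forms and at least 8 of another compartment. Genes described for both the plastid and the mitochondrion are counted as plastid. Compartments with fewer genes are left out, and the dashed lines are the shares of all genes tested. Numbers in parentheses are tested genes. Plastid forms have the longest bar to the left in the first block (699 of 1358) and in 8 of the 9 lists, jasmonate being the exception. In starch breakdown that bar is near the share of all genes (5 of 19). Peroxisomal genes lean to the right, and the list of fatty acid breakdown holds 26 genes of the peroxisome (15 higher and 2 lower).

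Genes of protein synthesis were mostly lower, and genes of protein breakdown were higher more often than lower. Of 209 cytosolic ribosomal protein genes 179 were lower and 4 higher, and the median log2 fold change was -0.78, and with library totals as the scale 65 were still lower and 11 higher. The 40S proteins S15a (LOC106767138) and S11 (LOC106760887) and the 60S protein L23 (LOC106770917), the largest falls under the rule for named genes, fell by 1.67, 1.47 and 1.56 on the log2 scale. S11 had 159.6, 159.7 and 189 CPM in CK 1, CK 2 and CK 3 and 61.0, 60.7 and 62.0 CPM in LT 1, LT 2 and LT 3, and its lowest CK library was 2.57 times its highest LT library. L10 (LOC106775970), a protein of the large subunit, had 12.7, 10.1 and 9.49 CPM in CK and 21.6, 25.9 and 39.5 CPM in LT and was 1 of the 4 that rose (log2 fold change 1.43, standard error 0.26, adjusted p = 0.0021). Of 76 genes of ribosome assembly 18 were lower and 7 higher (median -0.24). The higher ones numbered 3 without CK 2, the lower ones numbered 10 without LT 1 and 28 without LT 3, and with library totals 21 were higher and 1 lower and the median turned to 0.27.

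The proteasome degrades proteins tagged with ubiquitin, and autophagy delivers cytoplasm and organelles to the vacuole. Of 52 proteasome subunits 22 were higher and none lower, with a median of 0.26 and a largest log2 fold change of 1.62. Without CK 2 the count was 11, and with library totals it was 48. Of 25 autophagy genes 15 were higher and none lower (median 0.46, and 1 lower without CK 3). ATG13a (LOC106765058), a part of the kinase complex that starts autophagy, had 24.3, 22.0 and 20.1 CPM in CK 1, CK 2 and CK 3 and 69.8, 61.2 and 62.5 CPM in LT 1, LT 2 and LT 3 (log2 fold change 1.54, standard error 0.10, adjusted p = 3.4e-05). ATG8f (LOC106778112), the small protein that is fixed to the membrane of the autophagosome, had 29.0, 23.8 and 22.3 CPM in CK and 48.4, 47.4 and 56.7 CPM in LT (log2 fold change 1.02, standard error 0.15, adjusted p = 6.8e-04). Every LT library was above every CK library in both genes. Among 513 ubiquitin ligases 176 were higher and 58 lower. Single proteases of the vacuole rose as well. The vacuolar-processing enzyme LOC106764744, which activates vacuolar proteins by cleavage, rose from a mean of 1858 CPM in CK (SD 491, n = 3) to 3279 CPM in LT (SD 333, n = 3) (adjusted p = 0.023, but 0.078 without CK 2, 0.069 without CK 3 and 0.062 without LT 1), and the cysteine proteinase RD21A (LOC106764715) from a mean of 1013 CPM in CK (SD 127, n = 3) to 1928 CPM in LT (SD 189, n = 3) (adjusted p = 0.0031). FTSH 2, a protease of the thylakoid membrane, removes damaged protein of photosystem II. Its gene LOC106761908 had 171, 132 and 103 CPM in CK 1, CK 2 and CK 3 and 1143, 1083 and 1375 CPM in LT 1, LT 2 and LT 3 (log2 fold change 3.15, standard error 0.23, adjusted p = 4.4e-05). A second gene with this description (LOC106768704) went the other way, with 3978, 3749.7 and 3471 CPM in CK and 1061, 2169.8 and 1803 CPM in LT (log2 fold change -1.15, standard error 0.32, adjusted p = 0.016; adjusted p = 0.070 with library totals), and of the 19 tested genes of FTSH proteases and their inactive relatives 2 were higher and 9 lower (5 higher and 4 lower with library totals). The chaperone ClpD (LOC106762323), which feeds proteins to the Clp protease of the chloroplast and is known in Arabidopsis as an early dehydration gene, had 71.3, 74.6 and 66.1 CPM in CK and 679, 722 and 1663 CPM in LT (log2 fold change 3.85, standard error 0.36, adjusted p = 9.8e-05). ClpD was above CK by over 9-fold in each LT library and highest in LT 3.

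Starch enzymes divided by isoform. The list of starch synthesis held 21 tested genes, of which 10 were higher and 3 lower (5 lower without LT 2), but its median was -0.06 (0.42 with library totals and 0.51 without CK 3), since some isoforms rose by far while others fell or did not pass the test. ADP-glucose pyrophosphorylase makes the glucose donor of starch and is built of large and small subunits. Its large subunit 3 (LOC106756232, chromosome 2 from 3106033 to 3110825 of Vradiata_ver6) had 267, 270.2 and 287 CPM in CK 1, CK 2 and CK 3 and 4333, 4283 and 1621 CPM in LT 1, LT 2 and LT 3 (log2 fold change 3.64, standard error 0.41, adjusted p = 2.0e-04). A large subunit 1 listed as a fragment (LOC106762605) had 156, 185 and 227 CPM in CK and 2535, 2796 and 1299.9 CPM in LT (log2 fold change 3.55, standard error 0.34, adjusted p = 1.1e-04). The opposite held for the other large subunit 1 (LOC106768666), which had 748, 725 and 775 CPM in CK and 103.8, 211 and 106 CPM in LT (log2 fold change -2.42, standard error 0.29, adjusted p = 2.6e-04). In all 3 genes the groups were far apart, and LT 3 was the lowest LT library in both genes that rose. Of the other 3 tested members of the family, the small subunit (LOC106765074) was higher by 0.63 on the log2 scale (adjusted p = 0.038; the adjusted p was above 0.05 in 8 of the 9 fits that left out 1 library, up to 0.11 without CK 2 or LT 1), and a large subunit (LOC106762054) was lower (-1.16, adjusted p = 9.0e-05). Large subunit 4 did not pass the test.

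The branching enzyme 1 gene LOC106762405 (chromosome 5 from 23398433 to 23405528), whose product makes the branch points of amylopectin, had 158, 109 and 58.2 CPM in CK 1, CK 2 and CK 3 and 3588, 2440.3 and 1804 CPM in LT 1, LT 2 and LT 3 (log2 fold change 4.59, standard error 0.45, adjusted p = 1.1e-04). Its lowest LT library was 11.4 times its highest CK library. Glucose-6-phosphate translocator 2 (LOC106775916) imports the substrate of starch synthesis into plastids that do not make their own and is usually low in green leaves. It had 28.0, 97.0 and 161 CPM in CK 1, CK 2 and CK 3 and 1522, 2799.9 and 914 CPM in LT 1, LT 2 and LT 3 (log2 fold change 4.19, standard error 0.67, adjusted p = 0.0012; 4.801 without CK 3). Its CK libraries spread widely, yet all stayed far below LT. The other 2 translocator genes of this kind did not pass the test. Phosphorylases, which release glucose 1-phosphate from starch or glucans, were higher in 2 of 4 genes, of which the chloroplast L isozyme (LOC106770459) had 123, 120.5 and 116 CPM in CK and 691, 695 and 391 CPM in LT (log2 fold change 2.31, standard error 0.25, adjusted p = 1.8e-04). The other was the cytosolic H isozyme (LOC106775971, log2 fold change 4.50, standard error 0.20, adjusted p = 1.6e-05). By contrast the chloroplast alpha-amylase 3 (LOC106759267) fell by 1.26 and the maltose exporter MEX1 (LOC106763055) by 1.06 on the log2 scale, both without overlap of the groups. In the list of starch breakdown as a whole, 11 of 35 genes were higher and 7 lower.

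**Figure D3:**
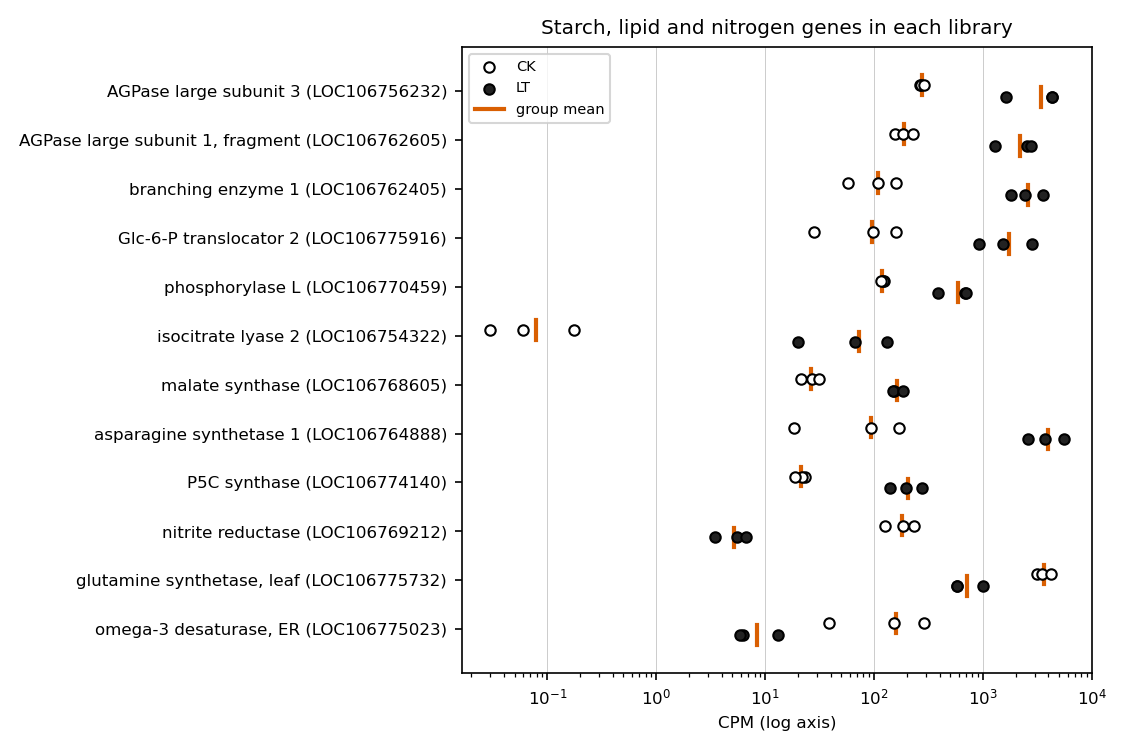
Expression of 12 genes of starch, nitrogen and lipid metabolism in each of the 6 libraries, in CPM on a log axis, with 0 drawn at 0.03. Open circles are CK and filled circles LT, and the short bars are group means. In each gene the 3 LT points lie apart from the 3 CK points, above them in the first 9 genes from the top and below them in the last 3.

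Soluble sugars showed smaller groups of changes. Raffinose and its relatives are made from galactinol and are known to accumulate in chilled leaves. Of 17 genes of the raffinose family 7 were higher and 1 lower, with a median of 1.12 (4 higher without CK 2 and 3 lower without CK 3). A raffinose synthase (LOC106761957, galactinol--sucrose galactosyltransferase) had 0.581, 0.595 and 0.262 CPM in CK 1, CK 2 and CK 3 and 20.5, 13.1 and 19.6 CPM in LT 1, LT 2 and LT 3 (log2 fold change 5.18, standard error 0.54, adjusted p = 1.5e-04). A gene described as a probable galactinol--sucrose galactosyltransferase 2 (LOC106757929) had 11.3, 6.73 and 3.73 CPM in CK and 100.98, 65.2 and 94.6 CPM in LT (log2 fold change 3.58, standard error 0.38, adjusted p = 1.6e-04). Both were low in CK and higher in every LT library. Galactinol synthase 2 (LOC106772016), which makes galactinol, had 85.002, 43.5 and 8.97 CPM in CK and 48.5, 348 and 227 CPM in LT. Its groups overlapped and it did not pass the test (log2 fold change 2.18, standard error 0.86, adjusted p = 0.064; 2.98 without CK 1 and 1.58 without LT 2). Among sugar transporters SWEET13 (LOC106766939), which exports sucrose from leaf cells in other species, had 7.49, 10.8 and 18.7 CPM in CK and 34.5, 68.4 and 133 CPM in LT (log2 fold change 2.68, standard error 0.56, adjusted p = 0.0046; 2.07 without LT 3), and the vacuolar SWEET17 (LOC106760194), a fructose carrier in Arabidopsis, had 51.3, 60.8 and 76.7 CPM in CK and 3.19, 10.2 and 3.22 CPM in LT (log2 fold change -3.51, standard error 0.44, adjusted p = 3.4e-04; -4.29 without LT 2). One rose and the other fell, without overlap in either. A soluble invertase (LOC106762541), which splits sucrose, fell by 3.44 on the log2 scale, while 4 of the other 9 tested invertases rose, among them the cell wall forms LOC106773632 and LOC106763119 (log2 fold changes 2.72 and 2.02). Genes of glycolysis stayed near the shares of all genes, with 13 of 77 higher and 20 lower (37 higher and 8 lower with library totals). Single genes of it changed by far: phosphoenolpyruvate carboxylase (LOC106760805) had 8.36, 5.24 and 1.77 CPM in CK and 68.2, 111 and 60.9 CPM in LT (log2 fold change 3.96, standard error 0.52, adjusted p = 4.2e-04) and plastid pyruvate kinase 2 (LOC106772700) 28.7, 33.2 and 35.9 CPM in CK and 2.73, 3.83 and 2.32 CPM in LT (log2 fold change -3.46, standard error 0.21, adjusted p = 2.5e-05). Of 85 genes of mitochondrial respiration 30 were lower and 9 higher (median -0.27, but 0.23 with library totals, which gave 32 higher and 3 lower; 19 lower without LT 1).

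Genes of fatty acid breakdown were higher more often than lower, and the reverse held for fatty acid synthesis. The peroxisome shortens fatty acids by beta-oxidation, and the glyoxylate cycle turns the acetyl units into precursors of sugars. The cycle is a mark of germinating oilseeds and of ageing leaves and is nearly silent in active leaves. Of 31 genes of the list 18 were higher and 3 lower, with a median of 0.68 (23 and 1 with library totals). Isocitrate lyase 2 (LOC106754322, chromosome 2 from 9854712 to 9857287), the entry step of the cycle, had 0.174, 0.0595 and 0 CPM in CK 1, CK 2 and CK 3 and 66.7, 20.2 and 132 CPM in LT 1, LT 2 and LT 3 (log2 fold change 9.71, standard error 1.46, adjusted p = 8.3e-04; 10.95 without CK 1 and 8.97 without LT 3). The 3 CK libraries held 4 of its reads in all. A second malate synthase gene (LOC106768605), the other enzyme particular to the cycle, had 21.4, 26.8 and 31.0 CPM in CK and 153, 149 and 184 CPM in LT (log2 fold change 2.62, standard error 0.16, adjusted p = 2.5e-05). The malate synthase LOC106766317 had 1 read in the CK libraries together and 31.6, 16.4 and 63.6 CPM in LT (adjusted p = 2.2e-04), so that all 3 tested genes of these enzymes rose. Glyoxysomal citrate synthase (LOC106764674) had 4.82, 3.33 and 1.96 CPM in CK and 33.5, 16.2 and 34.1 CPM in LT (log2 fold change 3.04, standard error 0.43, adjusted p = 6.2e-04). Of 6 acyl-CoA oxidases, which take the first step of beta-oxidation, 3 were higher and none lower, the largest log2 fold change being 1.06 (LOC106768333, adjusted p = 1.2e-04). The thiolase 3-ketoacyl-CoA thiolase 2 (LOC106777545) and a multifunctional protein of beta-oxidation (LOC106766980) were lower (log2 fold changes -0.57 and -1.72; the thiolase had an adjusted p of 0.60 with library totals), so that the rise did not cover the whole pathway. PLIP1 (LOC106773723), a plastid phospholipase A1 that frees fatty acids from thylakoid lipids in Arabidopsis, had 2.03, 0.655 and 0.262 CPM in CK and 88.9, 77.7 and 118 CPM in LT (log2 fold change 6.56, standard error 0.55, adjusted p = 6.5e-05; 7.65 without CK 1).

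In fatty acid synthesis and desaturation 24 of 46 genes were lower and 6 higher (median -0.69; 18 and 9 with library totals). Acyl carrier protein 1 (LOC106765413), which carries the growing chain, had 47.6, 71.8 and 98.9 CPM in CK and 8.28, 6.79 and 6.40 CPM in LT (log2 fold change -3.35, standard error 0.26, adjusted p = 4.9e-05). The endoplasmic omega-3 desaturase (LOC106775023), which makes the third double bond of linolenic acid, had 38.3, 154 and 290.2 CPM in CK 1, CK 2 and CK 3 and 6.26, 13.03 and 5.87 CPM in LT 1, LT 2 and LT 3 (log2 fold change -4.26, standard error 0.69, adjusted p = 0.0012; -3.52 without CK 3). A plastid delta-7 desaturase of monogalactolipids (LOC106773545) had 71.5, 98.9 and 133 CPM in CK and 3.78, 7.97 and 2.61 CPM in LT (log2 fold change -4.41, standard error 0.50, adjusted p = 2.0e-04). CK 1 was the lowest of CK in each of the 3 genes and still above all LT libraries. The transcription factor WRI1 (LOC106754673), which turns on fatty acid synthesis in seeds, had no read in CK and 2.73, 4.37 and 2.44 CPM in LT, at least 17.4-fold higher if 3 counts in a library are taken as its floor.

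The nitrogen genes included steps of chloroplast assimilation that fell and genes of amide and proline synthesis that rose. Nitrite reductase (LOC106769212, chromosome 7 from 7086235 to 7088919), the step that makes ammonium from nitrite, had 126, 185 and 231 CPM in CK 1, CK 2 and CK 3 and 3.49, 5.47 and 6.72 CPM in LT 1, LT 2 and LT 3 (log2 fold change -5.11, standard error 0.32, adjusted p = 2.5e-05). The chloroplast glutamine synthetase (LOC106775732), which captures this ammonium, had 3134, 3482 and 4229 CPM in CK and 576, 999 and 578 CPM in LT (log2 fold change -2.33, standard error 0.27, adjusted p = 2.2e-04). Nitrate reductase 2 (LOC106764856), the only nitrate reductase gene tested, was lower as well (log2 fold change -0.94, standard error 0.28, adjusted p = 0.023), a call lost without CK 2 (adjusted p = 0.066), without CK 3 (0.055) and with library totals (0.20). In these genes LT lay below CK in every library. Asparagine synthetase 1 (LOC106764888, chromosome 6 from 17008744 to 17014263) moves nitrogen onto asparagine, the transport and storage amide of many legumes, and is known in Arabidopsis as a gene of darkness and sugar shortage. It had 171, 93.1 and 18.3 CPM in CK 1, CK 2 and CK 3 and 3728, 5539 and 2584 CPM in LT 1, LT 2 and LT 3 (log2 fold change 5.39, standard error 0.77, adjusted p = 6.3e-04; 6.15 without CK 1). The CK libraries spread widely, and the lowest LT library was 15.2 times the highest CK library. Asparagine synthetase 2 (LOC106775764) was higher too (log2 fold change 2.80, standard error 0.62, adjusted p = 0.0059; 3.54 without CK 1), and the third gene of the family (LOC106756016) did not pass the test (log2 fold change -0.29, adjusted p = 0.057). Pyrroline-5-carboxylate synthase, the first enzyme of proline synthesis, has 4 tested genes, of which LOC106774140 rose (23.1, 21.7 and 19.0 CPM in CK and 142, 275 and 195 CPM in LT, log2 fold change 3.26, standard error 0.43, adjusted p = 4.3e-04), LOC106757860 fell (log2 fold change -0.69; adjusted p = 0.26 with library totals) and 2 did not pass the test. Allantoinase (LOC106776280), an enzyme of ureide breakdown, rose (log2 fold change 3.68, standard error 0.67, adjusted p = 0.0023; 2.86 without LT 3). Of 59 genes of nitrogen and amino acid metabolism 18 were higher and 13 lower, shares not far from those of all genes. Nitrate and peptide transporters had 17 genes in each direction of 61, among them NPF7.1 (LOC106769767; 2.67, 3.63 and 3.21 CPM in CK and 88.2, 169 and 76.7 CPM in LT, log2 fold change 5.13, standard error 0.45, adjusted p = 7.7e-05) and NPF5.4 (LOC106773779; 25.7, 26.7 and 20.6 CPM in CK and 0.672, 1.37 and 0.774 CPM in LT, log2 fold change -4.70, standard error 0.27, adjusted p = 2.4e-05). S-adenosylmethionine decarboxylase (LOC106777763), which commits methionine carbon to polyamines, rose from a mean of 947 CPM in CK (SD 20.5, n = 3) to 3539.6 CPM in LT (SD 138, n = 3) (log2 fold change 1.90, standard error 0.17, adjusted p = 7.3e-05).

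Chlorophyll breakdown was not uniform. Of 11 tested genes of the pathway 5 were higher and 6 lower. With library totals 5 were higher and 4 lower. STAY-GREEN (LOC106776916), which takes the magnesium out of chlorophyll a, had 128, 92.4 and 67.2 CPM in CK and 276, 328 and 327 CPM in LT (log2 fold change 1.70, standard error 0.24, adjusted p = 5.6e-04). NYC1 (LOC106774182), the reductase of chlorophyll b, and pheophorbide a oxygenase (LOC106756471), which opens the ring, rose by 1.48 and 0.91 on the log2 scale (adjusted p = 3.7e-04 and adjusted p = 0.031; the latter was 0.090 without CK 2, 0.095 without CK 3 and 0.10 without LT 3). Red chlorophyll catabolite reductase (LOC106763057), the step after it, rose by 0.59 (adjusted p = 0.0014). The falls were those of STAY-GREEN LIKE (LOC106778818, log2 fold change -3.92, standard error 0.39, adjusted p = 1.2e-04) and of 5 of the 6 genes described as pheophytinase, while the other one (LOC106762849), which takes part in removing the phytol tail if the description holds, rose (99.5, 71.7 and 39.3 CPM in CK and 635, 746 and 913 CPM in LT, log2 fold change 3.45, standard error 0.38, adjusted p = 1.8e-04). Each described step from chlorophyll b reductase to red chlorophyll catabolite reductase had 1 gene that rose. The list of senescence genes as a whole, which also holds metallothioneins and senescence-associated proteins, had 8 higher and 12 lower of 37 (4 higher without CK 2, and 14 higher and 7 lower with library totals).

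The genes most often named for cold did not share a direction. Of 39 cold and dehydration genes 9 were higher and 8 lower, with a median of 0.08, close to all genes. Among 4 genes of ICE1 and its relative SCREAM2, which induce DREB1 genes in Arabidopsis, 2 rose and 1 fell. ICE1 LOC106778861 had 5.92, 5.60 and 5.17 CPM in CK and 21.5, 10.3 and 20.7 CPM in LT (log2 fold change 1.65, standard error 0.28, adjusted p = 0.0016) and ICE1 LOC106768189 had 6.10, 7.86 and 8.12 CPM in CK and 2.73, 2.60 and 3.71 CPM in LT (log2 fold change -1.29, standard error 0.27, adjusted p = 0.0045). Among 7 tested DREB genes 2 were higher and 2 lower. DREB2C (LOC106764035), a factor of heat and drought responses, had 4.35, 2.92 and 3.54 CPM in CK 1, CK 2 and CK 3 and 26.8, 32.0 and 24.4 CPM in LT 1, LT 2 and LT 3 (log2 fold change 2.94, standard error 0.18, adjusted p = 2.7e-05). DREB1A (LOC106771839), a main cold factor of Arabidopsis, had 0.174, 0.0595 and 0.131 CPM in CK and 0.588, 0.273 and 3.87 CPM in LT (log2 fold change 3.64, standard error 1.12, adjusted p = 0.025; 1.78 without LT 3). It stayed below 1 CPM except in LT 3, and its adjusted p was 0.092 without LT 3, 0.086 without CK 2, 0.068 without CK 3 and 0.054 without CK 1. Of 8 late embryogenesis abundant proteins and dehydrins 2 were higher and 2 lower. Lea5 (LOC106760227) had 41.0, 44.0 and 44.9 CPM in CK and 15.7, 14.9 and 18.1 CPM in LT (log2 fold change -1.42, standard error 0.16, adjusted p = 1.9e-04).

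Heat stress factors bind the promoters of chaperone genes. Of 26 tested, 13 were higher and 3 lower. A-2b (LOC106758022), which in Arabidopsis sustains the heat response, had 324, 221 and 110.3 CPM in CK 1, CK 2 and CK 3 and 13.7, 18.3 and 14.9 CPM in LT 1, LT 2 and LT 3 (log2 fold change -3.80, standard error 0.36, adjusted p = 9.9e-05), and A-6b (LOC106772287) had 71.9, 44.3 and 27.8 CPM in CK and 5.17, 8.97 and 5.54 CPM in LT (log2 fold change -2.87, standard error 0.41, adjusted p = 6.5e-04). Both were lower in every LT library. The A-1 gene (LOC106777874), a regulator that is present before stress, rose (log2 fold change 1.18, standard error 0.12, adjusted p = 1.4e-04). Chaperones and heat shock proteins as a list were balanced, as given above. The small class I protein of 17.5 kDa (LOC106763898) had 0.0581, 0.238 and 0.0655 CPM in CK and 5.72, 4.87 and 6.19 CPM in LT (log2 fold change 5.46, standard error 0.70, adjusted p = 3.8e-04; 6.38 without CK 2) and the plastid DnaJ protein C76 (LOC106753612) had 5.28, 3.57 and 2.29 CPM in CK and 79.8, 77.2 and 92.5 CPM in LT (log2 fold change 4.48, standard error 0.26, adjusted p = 2.4e-05).

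Hormone lists were divided by gene and step. For abscisic acid, the hormone of drought and closed stomata, 18 of 48 genes were higher and 10 lower (median 0.32). NCED takes the committed step of synthesis, and the 2 genes tested were both higher. The gene NCED1 (LOC106759781), had 31.4, 28.5 and 18.6 CPM in CK and 42.6, 100.5 and 82.9 CPM in LT (log2 fold change 1.52, standard error 0.48, adjusted p = 0.029), a call lost without CK 2 (adjusted p = 0.072), CK 3 (0.091), LT 2 (0.083) or LT 3 (0.062). Abscisic acid 8'-hydroxylases break the hormone down. The gene for form 2 (LOC106753610) had 247, 216 and 189 CPM in CK 1, CK 2 and CK 3 and 30.2, 71.5 and 46.9 CPM in LT 1, LT 2 and LT 3 (log2 fold change -2.13, standard error 0.28, adjusted p = 3.8e-04). It was lower in every LT library, and of the other 6 genes of this enzyme 1 was lower and 2 were higher. Of 10 tested receptors of the PYL family 4 were lower and none higher. PYL4 LOC106770900 had 8.30, 14.0 and 20.9 CPM in CK and 2.65, 3.10 and 4.03 CPM in LT (log2 fold change -2.14, standard error 0.36, adjusted p = 0.0014). Of 7 protein phosphatases 2C of the kind that the receptors inhibit 3 were higher and none lower, among them PP2C 37 (LOC106757826; 53.6, 43.5 and 28.2 CPM in CK and 202, 167 and 169.8 CPM in LT, log2 fold change 2.103, standard error 0.25, adjusted p = 2.5e-04) and PP2C 51 (LOC106778050; log2 fold change 2.13, standard error 0.37, adjusted p = 0.0018).

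Gibberellin promotes stem growth and flowering. Its list had 13 of 36 genes higher and 4 lower. The receptor GID1B (LOC106757833) had 27.9, 25.1 and 20.6 CPM in CK 1, CK 2 and CK 3 and 152, 99.5 and 228 CPM in LT 1, LT 2 and LT 3 (log2 fold change 2.70, standard error 0.28, adjusted p = 1.4e-04), and 2 of the 3 tested receptor genes were higher. Of 11 gibberellin 2-oxidases, which inactivate the hormone, 5 were higher and 3 lower, among them LOC106775167 (10.9, 10.7 and 14.7 CPM in CK and 38.6, 32.4 and 60.4 CPM in LT, log2 fold change 1.86, standard error 0.23, adjusted p = 3.4e-04). In both genes LT lay above CK in every library. In cytokinin metabolism the synthesis gene for isopentenyltransferase 3 LOC106757524 had 3.54, 1.96 and 2.095 CPM in CK and 35.4, 35.3 and 14.1 CPM in LT (log2 fold change 3.47, standard error 0.43, adjusted p = 3.1e-04), the activating enzyme LOG LOC106761000 had 3.08, 2.92 and 3.08 CPM in CK and 19.5, 18.4 and 30.8 CPM in LT (log2 fold change 2.92, standard error 0.41, adjusted p = 5.6e-04), and the degrading cytokinin dehydrogenase 6 (LOC106761132) had 42.5, 33.0 and 25.1 CPM in CK 1, CK 2 and CK 3 and 1.34, 0.820 and 0.448 CPM in LT 1, LT 2 and LT 3 (log2 fold change -5.26, standard error 0.42, adjusted p = 5.4e-05). All 3 genes kept LT apart from CK in every library. The families as wholes were divided, with 1 of 4 isopentenyltransferases higher and 2 lower, 3 of 12 LOG genes in each direction, and 2 of 8 dehydrogenases in each direction. With library totals they leaned to higher, the isopentenyltransferases with 2 higher and none lower.

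Auxin genes were balanced as a list, 31 higher and 28 lower of 136, and single genes of auxin synthesis, import and oxidation fell. TAR2 (LOC106753302), an aminotransferase that makes the precursor of auxin from tryptophan, had 8.13, 9.82 and 11.9 CPM in CK 1, CK 2 and CK 3 and 0.420, 1.05 and 0.489 CPM in LT 1, LT 2 and LT 3 (log2 fold change -3.93, standard error 0.38, adjusted p = 1.1e-04), and 3 of the 4 tested genes of this name were lower. An auxin importer of the AUX1 type (LOC106757063) had 5.92, 5.24 and 5.76 CPM in CK and 0.462, 0.547 and 0.163 CPM in LT (log2 fold change -3.84, standard error 0.47, adjusted p = 3.0e-04), and it was the 1 lower gene of a family of 6 tested importers, of which 3 were higher. The dioxygenase DAO (LOC106763505), which oxidises auxin in Arabidopsis and rice, had 126, 376 and 614 CPM in CK and 6.51, 13.9 and 2.69 CPM in LT (log2 fold change -5.60, standard error 0.73, adjusted p = 4.1e-04; -6.33 without LT 2), and 2 of the 4 tested genes of this name were lower and none higher. PIN-LIKES 3 (LOC106776318), a carrier in the membrane of the endoplasmic reticulum, rose (17.9, 14.4 and 8.71 CPM in CK and 157, 106 and 104.97 CPM in LT, log2 fold change 3.16, standard error 0.28, adjusted p = 7.4e-05). Brassinosteroid genes had 6 of 26 in each direction (3 higher without CK 2). The late enzyme CYP85A (LOC106758156) had 14.0, 15.95 and 18.5 CPM in CK and 114, 109.6 and 141 CPM in LT (log2 fold change 2.91, standard error 0.29, adjusted p = 1.2e-04), whereas the early enzyme DET2 (LOC106763737) fell by 1.29 and the transcription factor BZR1 (LOC106762857) by 2.08 on the log2 scale. BZR1 had 71.0, 75.9 and 85.1 CPM in CK and 18.7, 18.3 and 17.8 CPM in LT (adjusted p = 2.1e-05), with little spread in either group. In jasmonate synthesis, 2 genes of 13-lipoxygenase, which starts the pathway, fell (LOC106756179 and LOC106776123, log2 fold changes -1.89 and -2.13), and 3 of 6 genes of allene oxide synthase, the next step, rose, among them LOC106762110 (21.6, 21.5 and 21.0 CPM in CK and 89.5, 73.6 and 95.6 CPM in LT, log2 fold change 2.01, standard error 0.22, adjusted p = 1.9e-04). The enzyme JAR1 (LOC106773156), which joins jasmonate to isoleucine to give the active hormone, had 215, 213 and 205 CPM in CK and 61.8, 72.9 and 42.3 CPM in LT (log2 fold change -1.84, standard error 0.22, adjusted p = 2.7e-04).

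**Figure D4:**
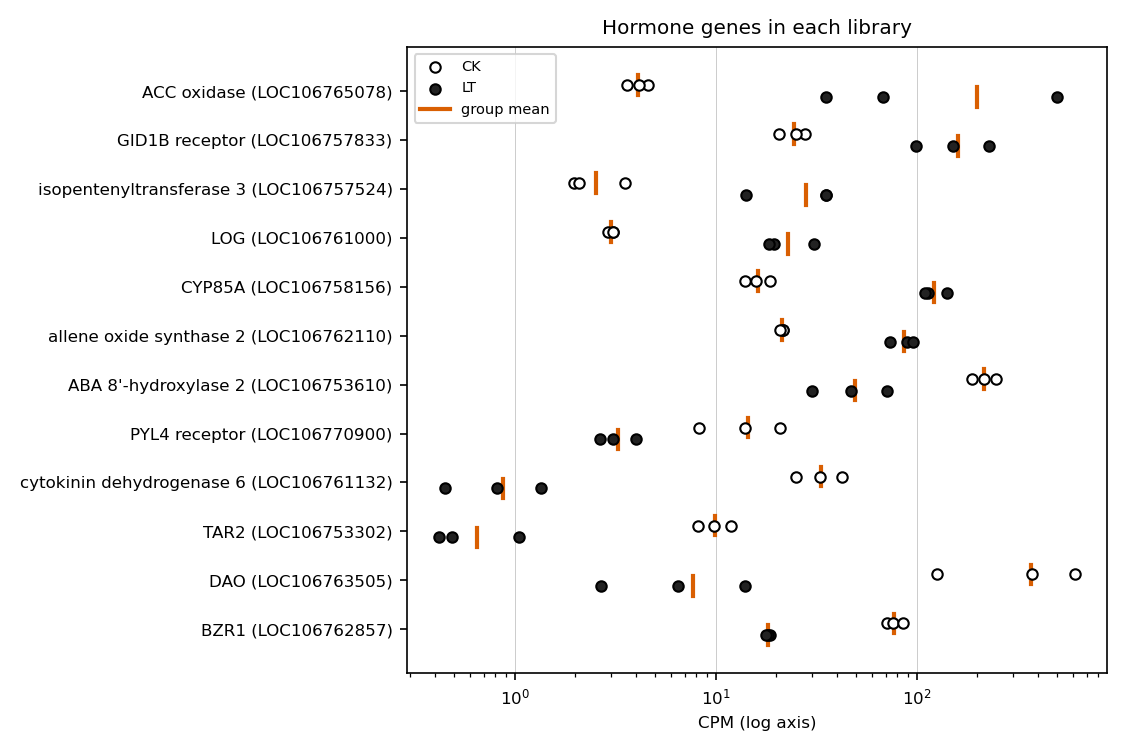
Expression of 12 genes of hormone synthesis, perception and breakdown in each of the 6 libraries, in CPM on a log axis. Open circles are CK and filled circles LT, and the short bars are group means. The groups do not overlap in any of the 12 genes. The 6 genes from the top rose and the other 6 fell, and ACC oxidase is the gene in which LT 3 lies farthest from LT 1 and LT 2.

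Among WRKY, ERF and DREB, flavonoid and ethylene genes called higher, LT 3 stood above the other LT libraries more often than among all genes called higher. Of 4394 genes called higher, 256 (5.83%) were more than 2-fold higher in LT 3 than in both other LT libraries, against 37 for LT 1 and 42 for LT 2. The share was 11 of 23 among WRKY factors called higher, 10 of 29 among ERF and DREB factors, 7 of 18 among flavonoid genes and 4 of 17 among ethylene genes. Pathogenesis-related proteins had 3 of 27 and a median level relative to CK that was lowest in LT 3 (-0.11, against -0.02 in LT 1 and 0.17 in LT 2). These lists were picked after the values were seen. Other lists also exceeded the share of all genes, among them MYB factors (7 of 28), NAC factors (5 of 25) and receptor-like kinases (14 of 99). Autophagy (0 of 15) and the proteasome (0 of 22) were among the lists below it. Ethylene genes were higher in 17 of 36 and lower in 3 (median 0.56, and 1 lower without CK 2). ACC oxidase, the last enzyme of ethylene synthesis, had 6 tested genes, of which 4 were higher and none lower. The gene LOC106765078 (chromosome 6 from 4092873 to 4094597) had 4.59, 4.17 and 3.60 CPM in CK 1, CK 2 and CK 3 and 35.3, 67.6 and 497 CPM in LT 1, LT 2 and LT 3 (log2 fold change 5.60, standard error 1.05, adjusted p = 0.0026; 3.64 without LT 3), and LOC106763329 had 1.92, 2.20 and 2.88 CPM in CK and 19.8, 16.3 and 241 CPM in LT (log2 fold change 5.31, standard error 1.14, adjusted p = 0.0051; 2.95 without LT 3). Both were above CK in each LT library, and LT 3 was 7.35 and 12.2 times the next LT library. WRKY33 (LOC106755495), a factor of the response to fungi in Arabidopsis, had 23.2, 14.6 and 13.3 CPM in CK 1, CK 2 and CK 3 and 47.3, 79.2 and 368 CPM in LT 1, LT 2 and LT 3 (log2 fold change 3.28, standard error 0.73, adjusted p = 0.0061; 1.89 without LT 3), and WRKY40 (LOC106762787) had 2.32, 2.74 and 1.96 CPM in CK and 7.98, 8.29 and 47.1 CPM in LT (log2 fold change 3.17, standard error 0.71, adjusted p = 0.0059; 1.79 without LT 3). The isoflavonoid enzymes 2-hydroxyisoflavanone synthase (LOC106763981) and 2-hydroxyisoflavanone dehydratase (LOC106776973), which make the precursors of legume phytoalexins, rose as well and were highest in LT 3. The synthase had 0.755, 0.714 and 0.524 CPM in CK and 1.64, 1.55 and 27.8 CPM in LT (log2 fold change 3.94, standard error 1.14, adjusted p = 0.020; 1.25 without LT 3). The dehydratase had 9.93, 7.80 and 5.89 CPM in CK and 24.2, 30.8 and 169.9 CPM in LT (log2 fold change 3.25, standard error 0.71, adjusted p = 0.0056; 1.802 without LT 3).

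The lists showed the same library. In the WRKY list the median log2 level relative to CK was -0.04 in LT 1, 0.31 in LT 2 and 0.63 in LT 3, and the list's median log2 fold change of 0.34, with 23 of 71 genes higher and 4 lower (1 lower without CK 1), became 0.12 without LT 3. The median of the ERF and DREB list was 0.17 without LT 3 against 0.63, and that of the flavonoid list -0.25 against 0.26. Of 72 flavonoid genes 18 were higher and 14 lower (11 higher without CK 2). The calls of the ACC oxidases and of both WRKY genes held without LT 3, but with limma-voom, which weighs the spread on the log scale, LOC106763329 had an adjusted p of 0.084, WRKY40 of 0.066 and the isoflavanone synthase of 0.21. The synthase call was also lost without CK 1 (adjusted p = 0.052), CK 2 (0.065) or CK 3 (0.065). Of the 18 tested genes of isoflavonoid enzymes 2 were higher and 4 lower (4 in each direction with library totals).

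Chymotrypsin inhibitors, proteins of storage and of defence against insects, showed the reverse order: LOC106755425 had 5.69, 9.82 and 16.4 CPM in CK and 406, 419.6 and 204 CPM in LT (log2 fold change 5.01, standard error 0.55, adjusted p = 1.8e-04), and LOC106779489 had 0.639, 0.833 and 1.11 CPM in CK and 32.1, 18.6 and 5.501 CPM in LT (log2 fold change 4.44, standard error 0.87, adjusted p = 0.0032; 3.81 without LT 1), lowest in LT 3 in both (the second had an adjusted p of 0.095 with limma-voom). The 16 tested genes of chymotrypsin and trypsin inhibitors had 9 higher and 5 lower.

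**Figure D5:**
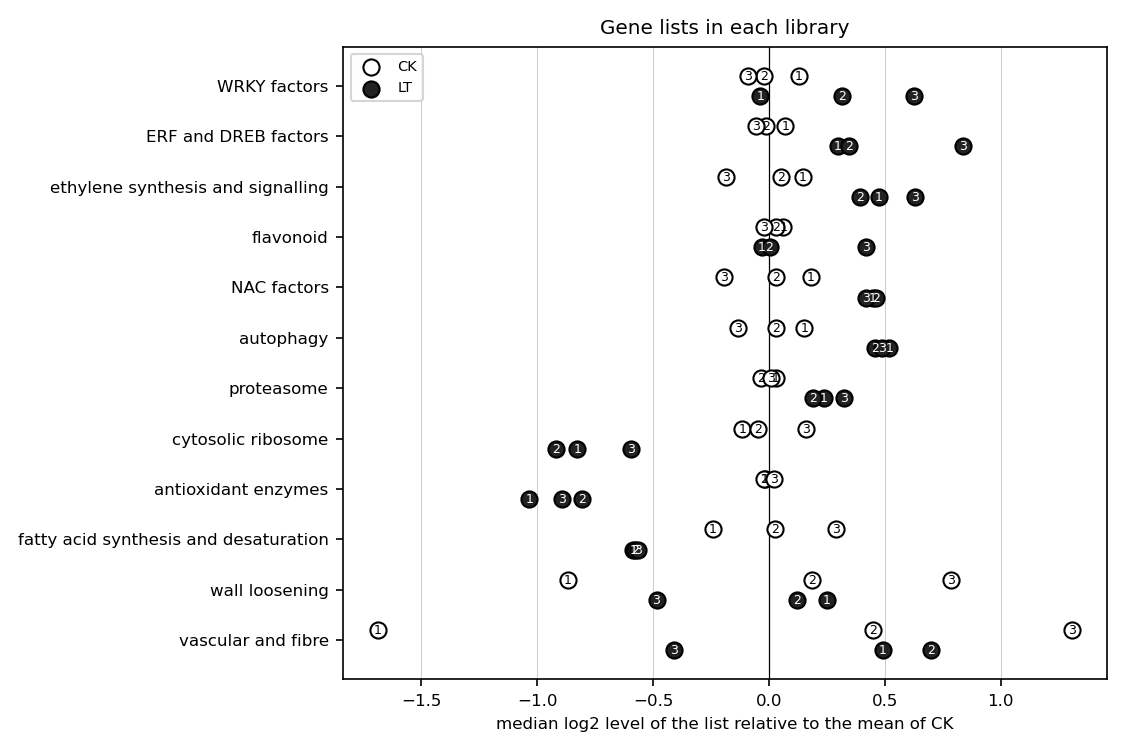
Median log2 level of the members of 12 gene lists in each of the 6 libraries, relative to the mean of the CK libraries. Open circles are CK and filled circles LT, numbered by library. In the lists of WRKY, ERF and DREB and ethylene genes LT 3 is the highest LT library, in cytosolic ribosome, autophagy and antioxidant enzymes the 3 LT libraries lie together and apart from CK, and in wall loosening CK 1 and CK 3 enclose all LT libraries.

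Other transcription factors rose more often than they fell. NAC factors, which include regulators of senescence, were higher in 25 of 67 and lower in 5 (3 without LT 1), MYB factors in 28 and 8 of 92, ERF and DREB factors in 29 and 16 of 72 (8 lower without CK 2) and bHLH factors in 39 and 24 of 110. NAC29 (LOC106766691), related to a senescence regulator of Arabidopsis, had 5.52, 3.57 and 1.51 CPM in CK 1, CK 2 and CK 3 and 69.4, 29.1 and 45.9 CPM in LT 1, LT 2 and LT 3 (log2 fold change 3.76, standard error 0.46, adjusted p = 3.1e-04). ERF15 (LOC106757330) had 3.19, 1.55 and 1.18 CPM in CK and 127, 55.7 and 167 CPM in LT (log2 fold change 5.87, standard error 0.55, adjusted p = 9.6e-05), and ERF1B (LOC106779140), a target of ethylene signalling, 0.464, 0.476 and 0.851 CPM in CK and 27.5, 14.9 and 32.1 CPM in LT (log2 fold change 5.38, standard error 0.39, adjusted p = 4.2e-05). The lowest LT library was 5.28, 17.4 and 17.6 times the highest CK library in these 3 genes. PIF4 (LOC106763151), a growth regulator that responds to light and warmth, had 33.2, 24.05 and 16.1 CPM in CK and 207, 162 and 225 CPM in LT (log2 fold change 3.02, standard error 0.26, adjusted p = 7.1e-05). SPATULA (LOC106776386), which restrains growth at cool temperatures in Arabidopsis, had 1.34, 1.49 and 1.37 CPM in CK and 16.7, 13.2 and 9.70 CPM in LT (log2 fold change 3.23, standard error 0.27, adjusted p = 6.6e-05). Small growth promoters of the PRE kind and RADIALIS-like factors went both ways, with 1 higher and 1 lower of 3 tested PRE genes and 1 higher and 5 lower of 8 RADIALIS-like genes. PRE6 (LOC106767321) had 1.05, 7.20 and 17.02 CPM in CK and 0.462, 0.182 and 0.611 CPM in LT (log2 fold change -4.30, standard error 0.99, adjusted p = 0.0070; -3.27 without CK 3; adjusted p = 0.071 with limma-voom), and RADIALIS-like 2 (LOC106753857) had 40.6, 33.5 and 34.2 CPM in CK and 0.336, 1.69 and 0.570 CPM in LT (log2 fold change -5.40, standard error 0.47, adjusted p = 7.3e-05; -6.29 without LT 2). RADIALIS-like 2 was near 0 in every LT library, and PRE6 rested more on CK 2 and CK 3 than on CK 1.

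The largest single changes included genes outside the lists. The thioredoxin-like HCF164 (LOC106767948), which passes reducing power across the thylakoid membrane, had 0.290, 0.595 and 0.720 CPM in CK 1, CK 2 and CK 3 and 104.1, 102 and 181 CPM in LT 1, LT 2 and LT 3 (log2 fold change 7.91, standard error 0.36, adjusted p = 1.6e-05). A gamma subunit of the energy sensor kinase SnRK1 (LOC106760494) had 0.174, 0.476 and 0.917 CPM in CK and 48.2, 48.7 and 31.0 CPM in LT (log2 fold change 6.36, standard error 0.53, adjusted p = 6.3e-05; 7.01 without CK 3). Scarecrow-like 28 (LOC106769171) had 1.05, 1.07 and 1.70 CPM in CK and 93.3, 177 and 71.4 CPM in LT (log2 fold change 6.49, standard error 0.44, adjusted p = 3.4e-05). Each was below 2 CPM in every CK library and above 30 CPM in every LT library. Dicer homolog 2 (LOC106758317), which cuts viral and other double-stranded RNA, had 0.174, 0.179 and 0.0655 CPM in CK and 16.8, 8.79 and 20.5 CPM in LT (log2 fold change 6.70, standard error 0.51, adjusted p = 4.9e-05). The gene of 1-deoxy-D-xylulose 5-phosphate reductoisomerase (LOC106772984, chromosome 9 from 14204366 to 14211533), the committed enzyme of plastid isoprenoid synthesis, had 11624, 9547 and 8274 CPM in CK 1, CK 2 and CK 3 and 993, 772 and 1343 CPM in LT 1, LT 2 and LT 3 (log2 fold change -3.24, standard error 0.35, adjusted p = 1.7e-04). 5'-adenylylsulfate reductase 1 (LOC106775990), the regulated step of sulfate assimilation, had 2713, 2823 and 2948 CPM in CK and 185, 579 and 339.7 CPM in LT (log2 fold change -2.94, standard error 0.37, adjusted p = 3.3e-04), and of the 5 tested genes of this name 2 were higher and 2 lower. Both of these genes were low in every LT library. The kinase CIPK6 (LOC106762203) and the guanosine tetraphosphate synthetase RSH3 (LOC106774133), a regulator of plastid gene expression, rose, from a mean of 649.7 CPM in CK (SD 135, n = 3) to 2050.02 CPM in LT (SD 662, n = 3) and from a mean of 299 CPM in CK (SD 24.7, n = 3) to 1199 CPM in LT (SD 372, n = 3) (adjusted p = 0.0015 and adjusted p = 4.2e-04).

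Redox enzymes changed by family. Catalase (LOC106762083, chromosome 5 from 23411711 to 23415959), which destroys the hydrogen peroxide of photorespiration, had 6385, 5520.5 and 4796 CPM in CK 1, CK 2 and CK 3 and 1794, 2248 and 1432 CPM in LT 1, LT 2 and LT 3 (log2 fold change -1.61, standard error 0.22, adjusted p = 5.6e-04). It was 1 of 2 tested catalase genes, and the other did not pass the test. Of 7 peroxiredoxins 6 were lower and none higher, and the chloroplast 2-Cys form BAS1 (LOC106756740) had 237, 341 and 469 CPM in CK and 27.4, 48.6 and 30.7 CPM in LT (log2 fold change -3.29, standard error 0.32, adjusted p = 1.1e-04). Among glutathione S-transferases, which conjugate glutathione to reactive compounds, 13 of 44 were higher and 15 lower (18 higher and 10 lower with library totals). GSTF9 (LOC106764119) had 1.51, 0.714 and 0.262 CPM in CK and 97.4, 68.4 and 99.1 CPM in LT (log2 fold change 6.70, standard error 0.64, adjusted p = 1.0e-04; 7.46 without CK 1), and the plastid dehydroascorbate reductase DHAR3 (LOC106756718) had 156, 174 and 221 CPM in CK and 31.8, 65.2 and 41.2 CPM in LT (log2 fold change -2.00, standard error 0.31, adjusted p = 9.8e-04). Peroxidase 12 (LOC106769628, chromosome 8 from 38908855 to 38911670), a secreted class III peroxidase, had 24.9, 40.5 and 60.8 CPM in CK 1, CK 2 and CK 3 and 2250.02, 1212 and 3046 CPM in LT 1, LT 2 and LT 3 (log2 fold change 5.69, standard error 0.49, adjusted p = 7.3e-05). It stood out in a list of 34 peroxidase genes matched by description, in which 8 were higher and 6 lower.

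Membrane water channels, wall enzymes and wax enzymes were mostly divided by gene. Of 31 aquaporins 11 were lower and 5 higher (3 higher without CK 2; median -0.59, and -0.09 with library totals, which gave 9 higher and 8 lower). In the plasma membrane group 7 of 13 were lower and 1 was higher. PIP-type 7a (LOC106757770) had 741, 693 and 720.3 CPM in CK 1, CK 2 and CK 3 and 25.2, 68.5 and 24.1 CPM in LT 1, LT 2 and LT 3 (log2 fold change -4.19, standard error 0.42, adjusted p = 1.3e-04; -4.86 without LT 2). The exception was a PIP2-7 gene (LOC106759297), which had 81.8, 84.7 and 94.2 CPM in CK and 1150.03, 967 and 649 CPM in LT (log2 fold change 3.41, standard error 0.23, adjusted p = 3.4e-05), whereas another gene with the same description (LOC106757699) had 563, 784 and 1018 CPM in CK and 177, 258 and 66.5 CPM in LT (log2 fold change -2.24, standard error 0.48, adjusted p = 0.0049). Reads of such close relatives may be shared between them, since how reads with several matching genes were counted is not given. Xyloglucan endotransglucosylases, which loosen the wall, were lower in 7 of 23 and higher in 1 (4 in each direction with library totals). XTH6 (LOC106778005) had 0.987, 21.4 and 48.2 CPM in CK and 0.756, 0.638 and 0.285 CPM in LT (log2 fold change -5.38, standard error 1.15, adjusted p = 0.0048; -4.32 without CK 3), where CK 1 lay close to the LT libraries, and its adjusted p was 0.17 with limma-voom. Expansin A4 (LOC106754553) rose (8.07, 8.57 and 7.14 CPM in CK and 26.1, 47.0 and 32.2 CPM in LT, log2 fold change 2.14, standard error 0.27, adjusted p = 3.6e-04). In wall loosening as a list, 6 of 43 genes were higher and 10 lower (6 lower without CK 3, and 10 higher and 6 lower with library totals), and its median moved from -0.50 without CK 1 to 0.23 without CK 3. Vascular markers moved with the same libraries, as given above, and their part in the result was not tested. For cuticular wax, CER1 (LOC106772995), the alkane-forming enzyme, had 0.406, 0.238 and 0.196 CPM in CK 1, CK 2 and CK 3 and 38.2, 9.15 and 35.0 CPM in LT 1, LT 2 and LT 3 (log2 fold change 6.57, standard error 0.94, adjusted p = 6.4e-04; adjusted p = 0.054 with limma-voom). All LT libraries were far above CK, and 5 of 8 genes of the ECERIFERUM names were higher and 1 lower. A gene of 3-ketoacyl-CoA synthase 6 (LOC106776380), which lengthens wax precursors, rose (0.0581, 0.417 and 0.196 CPM in CK and 8.03, 5.10 and 10.5 CPM in LT, log2 fold change 5.10, standard error 0.66, adjusted p = 3.7e-04; 5.93 without CK 2), and another gene of the same name (LOC106772353) fell (203, 218 and 231 CPM in CK and 94.1, 84.7 and 61.3 CPM in LT, log2 fold change -1.44, standard error 0.16, adjusted p = 1.7e-04).

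Genes of cell division were called higher at about the share of all genes and lower less often. Of 138 genes of the cell cycle and histones 32 were higher and 14 lower (7 lower without CK 3), and of 65 of DNA replication 16 and 8 (5 lower without CK 2). Cyclin A1-1 (LOC106764116) had 5.81, 5.48 and 7.46 CPM in CK and 0.0420, 0.182 and 0.122 CPM in LT (log2 fold change -5.70, standard error 0.41, adjusted p = 3.9e-05), and the mitotic cyclin S13-6 (LOC106762993) had 0.871, 1.73 and 1.64 CPM in CK and 8.53, 14.2 and 7.13 CPM in LT (log2 fold change 2.81, standard error 0.33, adjusted p = 2.5e-04). They moved in opposite directions without overlap. Calcium sensors had 23.2% called higher and 17.6% lower, receptor-like kinases 23.6 and 18.3%, pathogenesis-related proteins 23.7 and 23.7% (27 genes in each direction, 17 lower without CK 3, and 37 higher and 14 lower with library totals), cytochromes P450 28.6 and 27.6% and UDP-glycosyltransferases 34.04 and 31.9%, which were near those of all genes or, for the last, above them in both directions.

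The deposited table also assigns genes to KEGG pathways. Among 112 pathways with at least 10 tested genes, the 10 with the largest share of genes called higher were autophagy (18 of 32), fatty acid degradation (24 of 46), limonene and pinene degradation (5 of 10), cutin, suberine and wax biosynthesis (11 of 24), sphingolipid metabolism (10 of 23), beta-alanine metabolism (21 of 49), the proteasome (23 of 54), diterpenoid biosynthesis (8 of 20), SNARE interactions in vesicular transport (14 of 35) and homologous recombination (18 of 46). Over the 4278 tested genes with a pathway, 22.2% were higher and 28.2% lower. The 10 pathways with the largest share lower included 4 of photosynthesis, carbon fixation and chlorophyll. The other 6 were the ribosome (229 of 292), aminoacyl-tRNA biosynthesis (30 of 46), lysine biosynthesis (7 of 11), selenocompound metabolism (9 of 16), one carbon pool by folate (12 of 22) and riboflavin metabolism (9 of 18). Pathways share genes with each other and with the lists above, and no pathway was tested as a set.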

How the data were processed

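Leaves of 9 pots of mung bean (3 libraries each of CK, LT and LT+S) were sequenced, and the deposited table holds raw read counts per gene. According to the study's methods, the counts were made by the authors with htseq-count from alignments of hisat2 to the Vradiata_ver6 genome, after trimming with Trimmomatic. The submitters' processing notes also name CASAVA 1.8 and Cufflinks. The strand setting and the rule for reads with several matching genes are not given in the sources used here, so that reads of overlapping, antisense or near-identical genes could not be told apart.

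Groups follow the sample titles. Counts were tested with the quasi-likelihood test of edgeR 4.0.16 in R 4.3.3 (TMM scaling, filterByExpr by group, two-sided, Benjamini-Hochberg adjustment over 19304 genes) in 1 fit of all 9 libraries, of which the contrast of LT with CK was read. In counts simulated for this comparison over 18397 genes, the test called 47 of 65 genes changed 4-fold, 15 of 62 changed 2-fold, none of 64 changed 1.5-fold and 7 of 18206 unchanged genes. The simulation changed few genes and left out the difference in scaling between CK and LT, whereas 46.5% of the real genes were called. These shares therefore do not tell how many real changes were called or missed. Total counts of the 9 libraries ran from 19561896 to 21617340. Log2 CPM used a prior count of 2, and a lower bound of a fold used 3 counts per library as floor. With 3 pots per group the p-values measure the spread between pots. Alternatives were DESeq2 1.42.0, limma-voom (limma 3.58.1), edgeR on 6 libraries, other scalings and filters, the replicate number as a block, and each library left out in turn.

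Gene lists were matched to the product descriptions of the table, and the lists, families and named genes were chosen with earlier results of these data known. Genes were named if they were among the 3 largest log2 fold changes per list and direction, or the 15 per direction over all described genes, given that the adjusted p was below 0.05, that CK and LT did not overlap and that the group with more transcript reached 5 CPM on average, if they were among the 15 largest rises or falls in mean CPM, or if they had no count in one group (6 per direction). The split by compartment, the enzyme families and the genes LOC106756016, LOC106756471, LOC106757860, LOC106759781, LOC106763057, LOC106764856, LOC106765074, LOC106768333, LOC106768605, LOC106768704, LOC106771839, LOC106772016, LOC106772353, LOC106775764, LOC106775990 and LOC106777874, which lie outside this rule, were chosen after their values were seen. The RefSeq gene table held 26961 of the gene identifiers. Coordinates are those of the RefSeq gene table. Python 3.11.15 with pandas 2.3.3 and matplotlib 3.10.9 was used for summaries and plots.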

Additional observations from a re-analysis of the deposited data

How the results depend on the processing

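Beyond the scaling given in the report (9275 genes higher and 2314 lower with library totals, and 4761 and 1360 at a fold over 2 with an unadjusted p below 0.05, against 2276 and 2578), no alternative moved the counts of calls by over 1.5 times. Leaving out each of the 9 libraries in turn gave 3154 to 4334 genes higher and 3670 to 4555 lower, or 2114 to 2400 and 2434 to 2887 at the fold over 2. The other tests, filters and scalings gave 3635 to 4863 higher and 3991 to 4814 lower. Of the 131 called genes of the text 115 kept their call in every alternative that gave them an adjusted p, and the report marks the exceptions beside their values. DESeq2 on 6 libraries gave values for 131 of the 133 genes of the text. Both edgeR on 6 libraries and the filter at a mean of at least 1 CPM gave values for 132. Among the 133 genes of the text only asparagine synthetase 3 (LOC106756016), not called in the first place, changed direction, to a log2 fold change of 0.22 with library totals, while DESeq2 on 9 libraries (-0.28) and the fit without CK 1 (-0.37) called it lower. Galactinol synthase 2 (LOC106772016) was called higher with DESeq2 on 9 libraries, with library totals and without CK 1 or LT 1 (log2 fold changes 2.19, 2.65, 2.98 and 2.65).

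The replicate numbers are only numbers here. The deviations of same-numbered CK and LT libraries from their group means correlated at -0.06, 0.09 and -0.24, and the fit with a replicate block called 3845 genes higher and 4042 lower. With 3 libraries a group, a gene with few reads, such as DREB1A (LOC106771839), can pass or miss the test on 1 library. Promoter motifs were not run, since no promoter sequence was at hand. Causes of the changes between settings were not tested.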

Other observations

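The 3553 tested genes without a product description, none of them in any list, had 712 higher and 864 lower in LT and a median log2 fold change of -0.02, against 22.8% higher and 23.7% lower over all genes tested.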
